A study of Bos taurus with 15 samples.

Results

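The epithelial cells of newborn (NB) cattle liver were examined in the 1 liver library of a single-cell RNA survey of the Holstein digestive tract. They were chosen by measured values: a barcode (the tag of 1 droplet) was a member when it had 500 to 4000 genes, under 50000 UMIs (unique molecular identifiers, each counting 1 captured RNA molecule), at least 2 UMIs of KRT18 (ENSBTAG00000001517, a keratin of simple epithelia) and 0 of PTPRC (the leukocyte antigen CD45). This gave 144 members among 12734 liver barcodes within the gene and UMI limits, a share of 1.13% (exact 95% binomial interval, 0.954 to 1.33%), among 13669 liver barcodes and 172405 barcodes in all 15 libraries. The remaining 12590 liver barcodes within the limits are called the other barcodes, and 6493 of them with 2 or more UMIs of PTPRC are called leukocyte barcodes.

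The survey profiled untreated tissues of newborn calves, in 11 libraries, and of an adult (AD) lactating cow, in 4 intestinal libraries, with droplet 3' RNA sequencing. The liver of a newborn Holstein calf was chopped and digested with collagenase I, papain and DNase I, the released cells were strained, and no sort for epithelial cells was described. Each tissue and age is represented by 1 library, and the sources used here do not give which calf gave the liver. There is therefore no replicate and no test: levels are CPM (the UMIs of a gene summed over cells, per 1000000 UMIs of all genes in those cells), with exact 95% Poisson intervals, and all intervals cover counting error only.

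Liver epithelium has a pair of main cell types. Hepatocytes make the plasma proteins, the urea cycle enzymes and the bile acids and pass bile into fine canaliculi between them. Cholangiocytes line the bile ducts that drain it, carry a primary cilium, and add fluid and bicarbonate to bile through the secretin receptor (SCTR) and the chloride channel CFTR. KRT8 and KRT18 are made by both cell types, whereas KRT7 and KRT19 are the keratins of duct cells. Both arise from a common fetal precursor, and factors such as ONECUT1 act in their development.

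The UMIs of the members ranged from 1195 to 27042 with a median of 7084.5, against a median of 4756.5 in the other barcodes and 7701 in leukocyte barcodes, and their genes from 656 to 3862 with a median of 2447.5. The median share of mitochondrial UMIs was 8.92% in members and 3.46% in the other barcodes, and 1 member reached 52.2%. In total the members held 1234081 UMIs, so that a gene with no UMI among them lay below about 2.43 CPM (3 UMIs), and the other barcodes held 76645237. Library totals ran from 17707625 to 129458578 UMIs over the 15 libraries, with 85678587 in liver. Of the liver barcodes, 591 (4.32%) also occurred in another library, and 3 of these were members.

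The label was checked against epithelial genes that the rule had not used. KRT8 (733 CPM), KRT7 (364), KRT19 (528) and EPCAM (648, an epithelial adhesion molecule) were each 170-fold or more above the other barcodes, with ratios of 200 (interval 175 to 229), 266 (214 to 332), 190 (162 to 223) and 170 (149 to 195). EPCAM had a UMI in 126 of 144 members, KRT8 in 127, KRT7 in 113 and KRT19 in 110. The markers thus fit the name of epithelial cells for most members. They do not settle it for the rest, since KRT7 and KRT19 are keratins of duct cells and their absence does not set a hepatocyte apart.

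When members were clustered on their variable genes, they fell into 3 groups. The genes said to lead a group have its highest ratios to the other barcodes, not to the other members. Groups were told apart for naming by which of FGB, AHSG and MMP7 was highest relative to the other members. A group of 20 cells was led by FGB, FGG, HPX, APOA2 and TF, all plasma protein genes, held 6 hepatocyte markers and 0 bile duct markers among its 10 leading genes, and is called hepatocyte-like. A group of 106 cells was led by APOA1, AHSG, TM4SF4 and CLU, and its 10 leading genes held 2 bile duct markers, TM4SF4 and CD24, and 3 hepatocyte markers, APOA1 and AHSG among them. Markers of both cell types led it, so no cell type name was given to it and it is called the AHSG group. A group of 18 cells was led by KRT19, CXCL17, TM4SF4, APOA1, KRT8 and MMP7, and is called the MMP7 group. The AHSG and MMP7 groups together are called the duct-keratin cells. The number of groups depended on the setting: 2 at a clustering resolution of 0.25 and 7 at 1, against 3 at 0.5. It was 4 when mixed-marker cells (described further on), barcodes shared with another library or the member above 40% mitochondrial UMIs were each left out. The hepatocyte-like cells stayed apart from the other members throughout, whereas the cluster of highest MMP7 level held 18 to 124 cells. Because the groups were made from the expression of these same cells, the differences between them below are descriptions.

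Depth differed between the groups. Hepatocyte-like cells had 3185 to 27042 UMIs (median 19566.5), the AHSG group 1195 to 14351 (median 6570) and the MMP7 group 1497 to 11061 (median 4367.5). The hepatocyte-like members thus had the most UMIs per barcode, and a fixed minimum of 2 KRT18 UMIs is a lower level in them than in the other groups. Their median KRT18 was 178 CPM, against 1052 in the AHSG group and 1875 in the MMP7 group. At that lower level deep barcodes reach 2 UMIs more readily, so the rule itself favours deep hepatocyte-like cells. The difference in depth is therefore not read as a property of the cells. Median mitochondrial shares were 11.5%, 8.61% and 8.39% in this order.

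**Figure D1:**
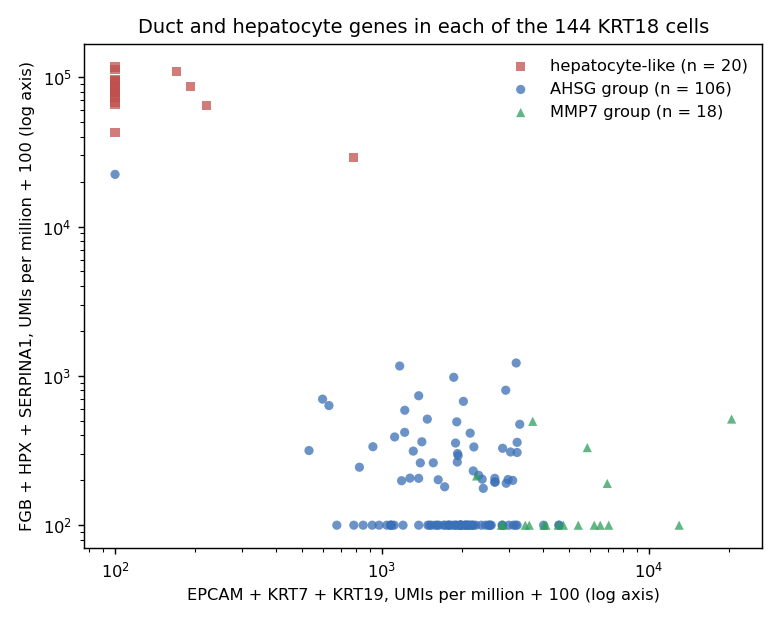
Each point is 1 of the 144 cells, placed by its summed EPCAM, KRT7 and KRT19 CPM (horizontal, log axis, 100 added) and its summed FGB, HPX and SERPINA1 CPM (vertical, log axis, 100 added), with colour and shape for the group. The hepatocyte-like cells lie at the top and mostly at the left, with 1 of 20 further right among the values of the AHSG group, and the AHSG group (106) and MMP7 group (18) lie at the lower right, apart from 1 AHSG group cell without duct keratin UMIs at the upper left.

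Among the keratins, the AHSG and MMP7 groups carried the duct pair and the hepatocyte-like cells did not. KRT19 per cell ran from 0 to 2187 CPM in the AHSG group (median 384), from 556 to 17377 in the MMP7 group (median 2388), and had a UMI in 1 of 20 hepatocyte-like cells. Every MMP7 cell thus carried KRT19, whereas the AHSG group overlapped both of the others. KRT7 summed to 477 CPM in the AHSG group, with a UMI in 96 of 106 cells, to 935 in the MMP7 group (16 of 18) and to 13.0 in hepatocyte-like cells, all of it from 1 cell. KRT8, which hepatocytes also make, summed to 886, 2526 and 31.2 in this order, with a UMI in 7 of 20 hepatocyte-like cells. KRT20 and KRT23, keratins of other epithelia, had no UMI in any member.

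Duct identity genes separated the members in the same way. EPCAM was found in 105 of 106 AHSG group cells, 17 of 18 MMP7 cells and 4 of 20 hepatocyte-like cells, at 896, 1275 and 18.2 CPM, and the ratio of the AHSG group to hepatocyte-like cells was 49.2 (23.8 to 123). When each cell was thinned to 1000 UMIs, EPCAM remained in 56.6% of the AHSG group, 66.7% of the MMP7 group, none of the 20 hepatocyte-like cells (0 of 20, which leaves up to 16.8%) and 0.324% of leukocyte barcodes. The gap between hepatocyte-like cells and the other groups thus held at equal depth, while the intervals of the AHSG group (46.6 to 66.2%) and MMP7 group (41.0 to 86.7%) overlapped. CD24, a surface glycoprotein, was at 845, 877 and 7.79 CPM, and TM4SF4, a membrane protein with 4 passes, at 2986, 4806 and 205.

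The factors of duct development followed. ELF3, an epithelial transcription factor, was at 131 CPM in the AHSG group, 257 in the MMP7 group and 7.79 in hepatocyte-like cells, and SOX9, the usual duct factor, was thin, at 14.6 over all members with a UMI in 14 of 144. SPP1 (osteopontin, a secreted matrix protein) was uneven within the duct-keratin cells, since it had a UMI in 79 of 106 AHSG group cells and in 3 of 18 MMP7 cells, at 896 and 175 CPM, a ratio of 5.11 (3.07 to 9.17). PROM1 and MUC1, which mark ducts in other species, had UMIs in at most 2 members.

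Several transport and cilium genes of the duct were likewise in the AHSG and MMP7 groups. Of 12 compared between the AHSG group and hepatocyte-like cells, 9 were 4-fold or more higher in the AHSG group, where 17.1% of all genes were. The other 3, SLC4A2, GGT1 and PKD2, stayed within 4-fold. CFTR was at 374 CPM in the AHSG group (86 of 106 cells), 292 in the MMP7 group (11 of 18) and 7.79 in hepatocyte-like cells (1 of 20). SCTR was at 453, 678 and 15.6, again with 1 hepatocyte-like cell. These are the channel and the receptor of secretin-driven bile flow. PKHD1, which codes for a protein of the primary cilium, was at 128, 105 and 0, and DCDC2, another ciliary gene, at 143, 175 and 10.4. Lower levels were measured over all members for SLC12A2 (50.2), the bile acid carrier SLC10A2 (20.3) and the water channel AQP1 (8.91), and FXYD2 and SLC9A3 had no UMI.

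Against the other barcodes, members were 4-fold or more higher (5 CPM added to both levels) for 892 of 6643 genes compared and 4-fold or more lower for 646, that is for 13.4% and 9.72% of all genes, with a median log2 difference of 0.07 over all genes. The counts depend on the scaling: under TMM scaling 756 were higher and 783 lower, with a median of -0.34, and adding 20 CPM left 402 higher and 307 lower. Of the 3 keratins compared other than KRT18, all were higher. The counts were 9 of 10 duct identity genes, 9 of 11 transport and cilium genes and 9 of 10 junction genes, with none lower, and the exceptions SOX4 (359 against 167 CPM), SLC4A2, ATP1B1 and CLDN1 stayed within 4-fold. Median log2 differences in these lists were 4.34, 2.89 and 3.47. Members had to carry KRT18 and lack PTPRC, so a difference of this kind from a library rich in leukocytes is what the rule selects, and the counts are given as a description.

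**Figure D2:**
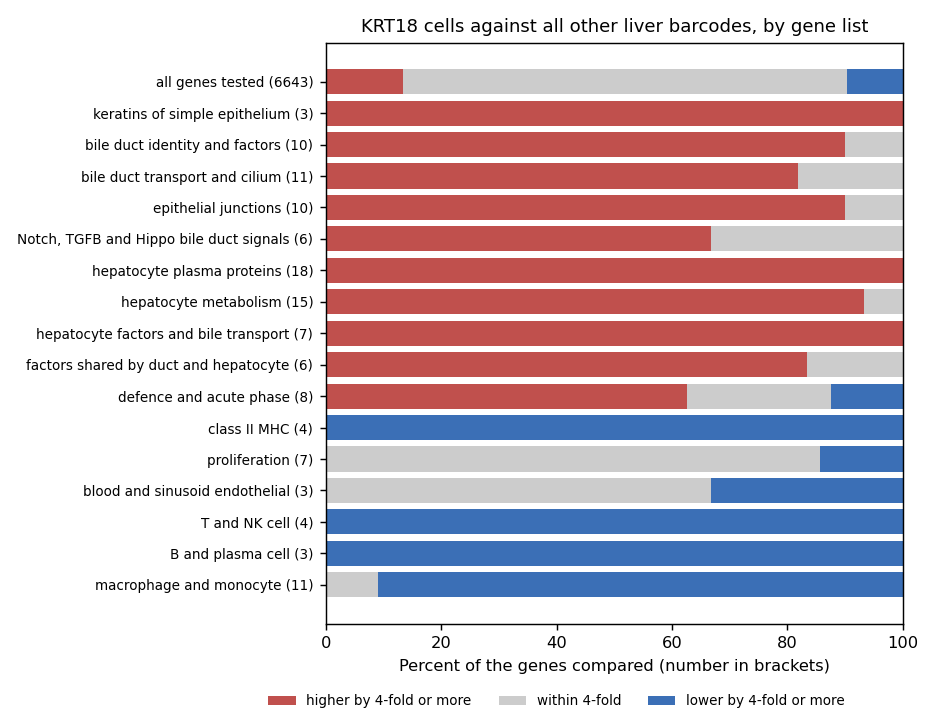
Bars show, for each gene list with at least 3 genes compared, the percent of genes that were 4-fold or more higher (red), within 4-fold (grey) or 4-fold or more lower (blue) in the 144 cells than in the other liver barcodes, with the number of genes in brackets. Over all 6643 genes the shares were 13.4% higher and 9.72% lower, and most genes of the duct and hepatocyte lists are in red, among them all 18 plasma protein genes.

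Junction and adhesion genes of epithelium were mostly shared by the AHSG and MMP7 groups. CDH1 (E-cadherin) was at 236 and 596 CPM against 33.8 in hepatocyte-like cells, the tight junction genes CLDN3 at 181 and 269 against 0 and CLDN4 at 335 and 292 against 10.4. CLDN10 was at 291 in the AHSG group and 81.8 in the MMP7 group, and CLDN1, another claudin, was level at 48.4 in the AHSG group and 62.4 in hepatocyte-like cells. The junction list thus did not split as cleanly as the duct identity list: of the genes compared between the AHSG group and hepatocyte-like cells, 6 of 11 junction genes and 11 of 11 duct identity genes were 4-fold or more higher in the AHSG group. Over all 6242 genes of that comparison 17.1% were higher and 6.71% lower, and the median log2 difference was 0.98, so that the whole scale was shifted towards the AHSG group.

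Of the signals that pattern ducts, 4 of 6 genes compared were higher in members than in the other barcodes and none lower, where 13.4% of all genes were higher. They were JAG1, a Notch ligand (64.0 against 7.44 CPM), the Hippo pathway targets CCN1 (82.7 against 5.18) and CCN2 (67.3 against 3.64), and the growth factor receptor FGFR2 (89.1 against 0.561). JAG1 was higher in the MMP7 group (316) than in the AHSG group (60.2) or hepatocyte-like cells (15.6), and the ratio of the MMP7 group to the AHSG group was 5.24 (3.13 to 8.61). The Notch target HES1 was at 83.5 in members and 112 in the other barcodes. Receptors and effectors were near the limit, with NOTCH2 at 5.67 and YAP1 at 8.10, and the stem cell receptor LGR5 had no UMI.

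The hepatocyte lists gave the most extreme levels, and they were not confined to the hepatocyte-like cells. All 18 plasma protein genes compared, 14 of 15 metabolism genes and 7 of 7 genes of hepatocyte factors and bile transport were 4-fold or more higher in members than in the other barcodes, with none lower, where 13.4% of all genes were higher. Between the AHSG group and the hepatocyte-like cells, 6.71% of all genes were 4-fold or more lower in the AHSG group. In these lists 14 of 18 plasma protein genes, 12 of 16 metabolism genes and 6 of 9 factor and transport genes were. APOA1 alone among these was higher, whereas AHSG, TF and TTR were within 4-fold. These counts are read against the shift of the median over all genes given above, which runs the other way.

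APOA1 (ENSBTAG00000002258, the main protein of high density lipoprotein) had a UMI in all 144 members. Per cell it ran from 559 to 126377 CPM in the AHSG group (median 44077), from 2350 to 159653 in the MMP7 group (median 34778) and from 299.9 to 12709 in hepatocyte-like cells (median 1294). The medians of both duct-keratin groups thus lay above the highest hepatocyte-like cell, although their ranges overlapped. Summed, it was at 48393, 41965 and 1733, and the AHSG group was 27.9-fold (25.9 to 30.2) above hepatocyte-like cells.

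AHSG (ENSBTAG00000000522, the serum glycoprotein fetuin-A) gave its name to the AHSG group, where its summed level was highest. Per cell it ran from 0 to 46225 CPM there (median 16863, with a UMI in 102 of 106 cells), from 1752 to 10591 in hepatocyte-like cells (median 4185) and from 0 to 22803 in the MMP7 group, where 3 of 18 cells had a UMI and the median was 0. The AHSG group was 3.76-fold (3.58 to 3.95) above hepatocyte-like cells and 22.3-fold (17.6 to 28.6) above the MMP7 group. KIF12, a kinesin, was at 2669 CPM in the AHSG group, 2227 in hepatocyte-like cells and 842 in the MMP7 group.

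FGB (ENSBTAG00000022120, the fibrinogen beta chain) was the reverse. It ran from 20501 to 91383 CPM per cell in hepatocyte-like cells (median 58045), whereas the median was 0 in both other groups and their highest cells were at 13497 and 414. No cell of those groups reached the lowest hepatocyte-like cell. HPX, the haem carrier hemopexin, ran from 5976 to 22480 in hepatocyte-like cells (median 12937), had a UMI in 6 of 106 AHSG group cells and had none in the MMP7 group. SERPINA1, the elastase inhibitor alpha-1 antitrypsin, summed to 9317, 99.5 and 11.7 in hepatocyte-like cells, the AHSG group and the MMP7 group. The ratio of hepatocyte-like cells to the AHSG group was 196 (173 to 224) for FGB, 107 (86.8 to 133) for HPX and 93.6 for SERPINA1. Without 5 cells of mixed markers, described further on, these ratios were 1083 (798 to 1509), 1321 (641 to 3288) and 299 (199 to 473).

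**Figure D3:**
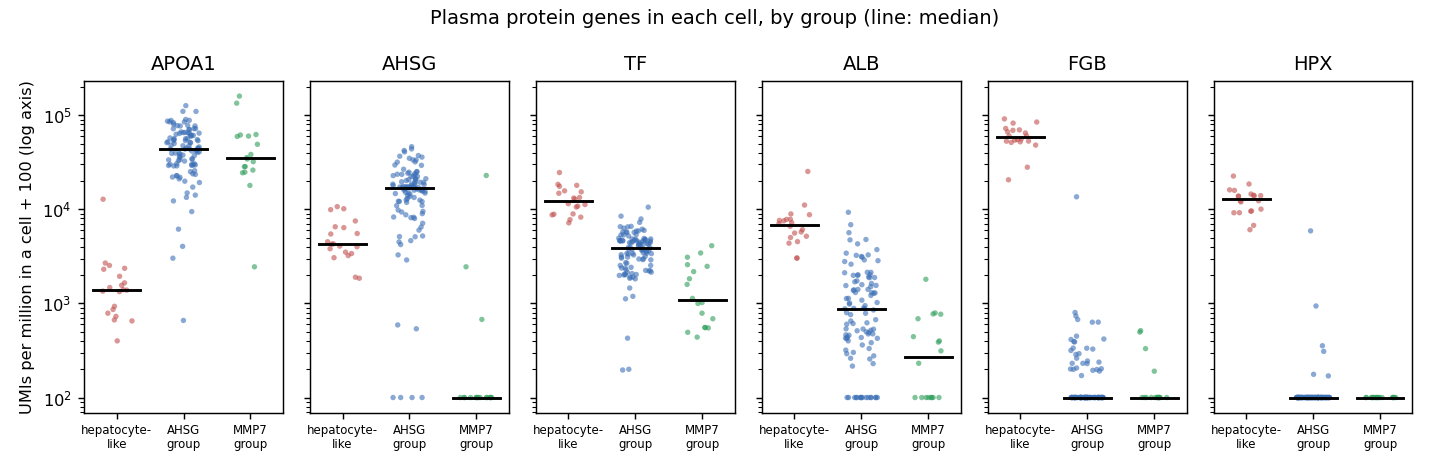
Each point is 1 cell, at its CPM plus 100 (log axis) for 6 plasma protein genes, and black lines are group medians. The medians of APOA1 are 1294, 44077 and 34778 CPM in hepatocyte-like cells, the AHSG group and the MMP7 group, those of AHSG are 4185, 16863 and 0, and those of FGB are 58045, 0 and 0.

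Other plasma protein genes lay between these extremes. TF (transferrin, the iron carrier) had a UMI in every member, with cell medians of 12058 in hepatocyte-like cells, 3736 in the AHSG group and 977 in the MMP7 group. ALB (albumin) had medians of 6735, 764 and 172, and FGG, the fibrinogen gamma chain, summed to 20620, 911 and 479. The fibrinogen chains were thus unequal in the AHSG group, where FGG had a UMI in 102 of 106 cells, FGA in 48 and FGB in 31. TTR, a thyroid hormone carrier, was close in all groups at 1712, 922 and 1485, and GC, the vitamin D binding protein, was at 2027, 1482 and 105. The apolipoprotein genes APOC3 (3089, 11.8 and 0) and APOB (618, 2.62 and 0) stayed with the hepatocyte-like cells, unlike APOA1.

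Droplet libraries carry free RNA, so the same genes were read in leukocyte barcodes. These are not a plain background for the whole list, since HP, which leukocytes also make, was 48.0% of its UMIs in them, and SERPINA1 is made by monocytes. Thinned to 1000 UMIs, APOA1 had a UMI in 2.02% of leukocyte barcodes, in all 106 AHSG group cells, in all 18 MMP7 cells and in 60.0% of hepatocyte-like cells (12 of 20). AHSG had a UMI in 1.26% of leukocyte barcodes and in 94.3% (88.1 to 97.9%) of the AHSG group, against 11.1% (1.38 to 34.7%) of the MMP7 group. It was also in all 20 hepatocyte-like cells, so its presence does not set the AHSG group apart from them. FGB, HPX and SERPINA1 were in 6.60% (2.70 to 13.1%), 1.89% (0.229 to 6.65%) and 4.72% (1.55 to 10.7%) of the AHSG group and in 3.29%, 0.987% and 1.74% of leukocyte barcodes, so that the intervals of these 3 genes in the AHSG group held the values of leukocyte barcodes.

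The proportion of APOA1 to FGB was also read. Hepatocyte-like cells had 0.0288 UMIs of APOA1 per UMI of FGB (0.0266 to 0.0311) and the AHSG group had 158 (139 to 180). In leukocyte barcodes the summed ratio was 3.13 (2.96 to 3.30), but 160 of these 6493 barcodes with a UMI of KRT18, KRT7, KRT19 or EPCAM held 4619 of their 5319 APOA1 UMIs, and 1 barcode held 502. Without the 160 barcodes the ratio was 0.437 (0.399 to 0.478), with a UMI of APOA1 in 639 barcodes and of FGB in 1182. Over all other barcodes it was 0.678 (0.661 to 0.696), but these are no plain background either. Among them 26 had 50 or more UMIs of FGB, HPX, SERPINA1 and APOC3 together. A further set of 30 had 5 or more UMIs of EPCAM, KRT7 and KRT19 together. The ratio in the AHSG group was 880 without 4 cells that also held macrophage genes. APOA1 made up 62.7% of the UMIs of the hepatocyte lists in the AHSG group, 88.2% in the MMP7 group and 0.957% in hepatocyte-like cells. The part of free RNA in these values was not tested.

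**Figure D4:**
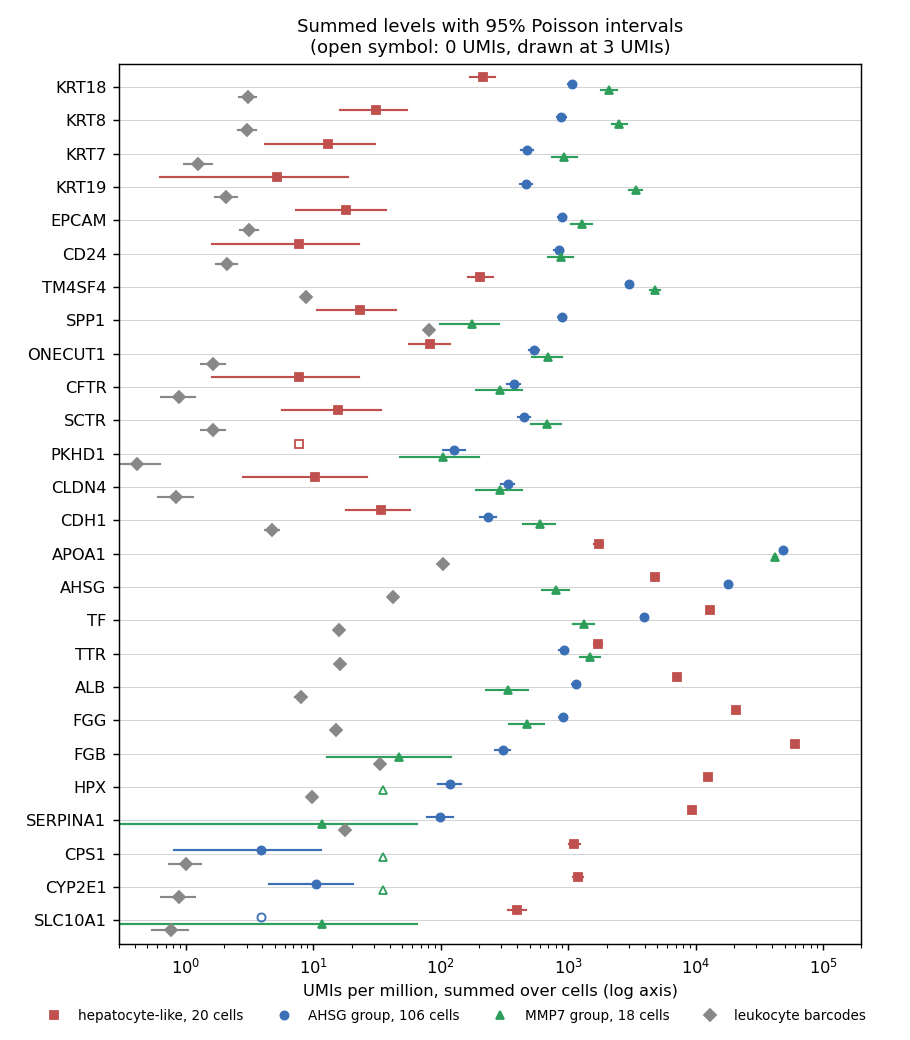
Summed levels of each group and of leukocyte barcodes in CPM (log axis) are plotted for 26 genes with exact 95% Poisson intervals, and an open symbol marks a gene with 0 UMIs, drawn at the level of 3 UMIs. Keratin, duct and transport genes from KRT8 to CDH1 are lowest among the members in hepatocyte-like cells, APOA1 and AHSG are highest in the AHSG group, and genes from TF to SLC10A1 are highest in hepatocyte-like cells, where FGB is at 60195 CPM.

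Metabolic genes were read next. CPS1, the first enzyme of the urea cycle, was at 1117 CPM in hepatocyte-like cells, 3.93 in the AHSG group and 0 in the MMP7 group. The cytochrome CYP2E1 was at 1190, 10.5 and 0, a ratio of 114 between the first pair, and PCK1, the enzyme that starts gluconeogenesis, at 1151, 15.7 and 11.7. Without the cells of mixed markers CYP2E1 had 1 UMI in the AHSG group, a ratio of 888 (159 to 35146), and PCK1 was at 5.55 CPM there. The fatty acid binding protein FABP1 was at 954, 5.24 and 0. Of the bile acid synthesis enzymes read, CYP7A1, the rate-limiting one, had a UMI in 2 hepatocyte-like cells only, and CYP27A1 was at 36.4, 55.0 and 23.4, with a level of 44.5 in the other barcodes.

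Carriers that take bile acids from blood or export bile components were read in the same groups. SLC10A1, the uptake carrier, was at 395 CPM with a UMI in 19 of 20 cells, against 0 in the AHSG group (limit 3.93) and 1 UMI in the MMP7 group. SLCO1B3 was at 450 and ABCB4, the phospholipid exporter, at 327, each against 1.31 in the AHSG group, and ABCB11, the bile salt export pump, at 54.6 against 0. The asialoglycoprotein receptor gene ASGR1 was at 520 against 6.55, and the latter was 0 without the cells of mixed markers. HNF4A, a factor of hepatocyte identity, had a UMI in 2 members, at 1.62 over all of them.

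Factors that both lineages use summed to 200 CPM in hepatocyte-like cells, 1185 in the AHSG group and 1204 in the MMP7 group. Between the first pair 3 of 6 genes compared, ONECUT1, GATA6 and HHEX, were 4-fold or more higher in the AHSG group, where 17.1% of all genes were. HHEX was at 5.20 in hepatocyte-like cells and 262 in the AHSG group. ONECUT1 was at 83.1 CPM in hepatocyte-like cells, 541 in the AHSG group and 690 in the MMP7 group, with a UMI in 128 of 144 members and at 2.32 in the other barcodes. FOXA2, a pioneer factor of the liver, was at 44.2, 93.0 and 129, and NR5A2, a nuclear receptor, at 39.0, 164 and 105. Of this list 5 of 6 genes compared were higher than in the other barcodes, where 13.4% of all genes were, and the exception, HHEX, was at 177 against 83.3. Of the fetal genes, IGF2 was at 696 CPM in hepatocyte-like cells and 30.1 in the AHSG group, AFP had 1 UMI in each of 3 members, and DLK1 and LIN28B had none.

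Of the defence genes 5 of 8 compared were higher in members and 1, CXCL8, was lower, where 13.4% and 9.72% of all genes were. C3, the central complement protein, was at 3897, 1713 and 1146 CPM in hepatocyte-like cells, the AHSG group and the MMP7 group. Complement factor B (CFB) was at 1850, 43.2 and 58.5, whereas lactoferrin (LTF) was at 0, 228 and 152 and the immunoglobulin carrier PIGR at 0, 41.9 and 117. The last pair was therefore in the duct-keratin cells and CFB in the hepatocyte-like ones. CXCL8, a neutrophil chemokine, was at 8.10 in members against 157 in the other barcodes, and a share of 1 in 8 is near that of all genes. Mucin and trefoil genes were nearly absent, with TFF3 in 5 members and no UMI of MUC4, MUC13, TFF1 or TFF2.

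The MMP7 group was set apart from the AHSG group by several genes at once. MMP7, a secreted metalloproteinase, was at 1602 CPM (16 of 18 cells) against 123 (40 of 106), a ratio of 13.0 (9.94 to 17.1). LGALS2, a galectin, was at 935 (13 of 18) against 9.17 (6 of 106), and KRT19 at 3403 against 469, a ratio of 7.26 (6.20 to 8.50). MSLN, the surface protein mesothelin, was at 304 against 58.9, a ratio of 5.16 (3.06 to 8.54). It was uneven in the MMP7 group, from 0 to 0.269% of a cell's UMIs with a median of 0.00749%. In the other direction, GC was 14.1-fold (7.39 to 30.9) and SPP1 5.11-fold higher in the AHSG group, and PEG3, an imprinted gene, was at 338 (70 of 106 cells) against 0 in 18. CD24 had a ratio of 1.04 (0.806 to 1.32) between them, and APOA1 one of 0.867 (0.838 to 0.897). At a coarser clustering the MMP7 group merged with the AHSG group into 1 of 124 cells.

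Markers of other cell types were read over their whole lists. A barcode was called above the leukocyte level when the share of its UMIs in a list passed the 99th percentile of leukocyte barcodes, with at least 2 UMIs of the list. For the lists of erythroid and stellate cells 0 of 144 members were above that level, and for the endothelial list 1 was. That level says nothing about lists that leukocytes themselves express, so these are given by their sums. The macrophage list summed to 852 CPM in members against 12572 in the other barcodes and ran from 0 to 5.04% of a member's UMIs, with a median of 0.0249%. Of its 11 genes, 10 were 4-fold or more lower in members, and the exception, CD14, was at 257 CPM in hepatocyte-like cells, with a UMI in 19 of 20. The class II list summed to 328 CPM against 6919, the T and NK cell list to 38.9 against 685 and the B cell list to 15.4 against 475. Also lower were 4 of 4 class II genes, 4 of 4 T and NK cell genes and 3 of 3 B cell genes, where 9.72% of all genes were lower. Members had to lack PTPRC, so lower leukocyte lists are what the rule selects, and these counts are a description. Mesothelium also carries keratins and MSLN, but its markers WT1, LRRN4 and CALB2 had no UMI in members and UPK3B was at 3.24 CPM (4 UMIs in 4 members) against 3.37 in the other barcodes, and each of the 12 members above the leukocyte level for its list held MSLN UMIs. In the lymphatic list only PROX1, which liver epithelium also uses, had UMIs in members, whereas CCL21, PDPN and FLT4 were at 0, and 17 members were above the level.

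A few members carried markers of more than 1 cell type. There were 5, of which 4 in the AHSG group had 10 or more UMIs of the complement genes C1QA, C1QB and C1QC, and 1 hepatocyte-like cell had both FGB and duct keratin UMIs. One of the 4 had no duct keratin UMI and 193 UMIs of FGB. Without them the AHSG group was at 56.9 CPM for FGB in place of 306, at 9.72 for HPX in place of 118 and at 20.8 for the macrophage receptor MARCO in place of 244, whereas APOA1 was at 50059 and AHSG at 18551, and KRT7 was at 0 in the 19 hepatocyte-like cells that were left. Other hepatocyte genes were lower there too, with SERPINA1 at 31.9 in place of 99.5, F2 at 30.5 in place of 53.7 and IGF2 at 2.78 in place of 30.1 in the AHSG group. The doublet score was among the top 10.2% of the library in 10 of 144 members (6.94%), compared with 10.2% of the other barcodes. The part of doublets in the remaining values was not tested.

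The 10 genes most lowered in members were read by the same ratio. S100A4 was at 121 CPM against 4159, the class II gene BLA-DQB at 67.3 against 2304, FCN1, a ficolin of monocytes, at 28.4 against 1445, LYZ (lysozyme) at 34.0 against 1310, and F13A1, a coagulation factor of macrophages, at 13.8 against 737. RETN (resistin) had 1 UMI among all members, at 0.810 against 177. The galectin LGALS1 was at 20.3 against 852 and BRB at 10.5 against 799.9. A pair without a symbol, ENSBTAG00000001219 (8.91 against 664) and ENSBTAG00000048980 (113 against 3780.5), completes the 10, and the former was at 303 in leukocyte barcodes. On the higher side the leading genes by ratio included APOA1, AHSG, TM4SF4, CLU, KIF12, TF, GC and CST6. CLU (clusterin, a secreted chaperone) was at 3260 against 18.8, and CST6, a protease inhibitor, at 1567 against 10.3. A pair of genes without a symbol in the files, ENSBTAG00000030683 (1272 against 7.22) and ENSBTAG00000022395 (6927 against 67.2), stood among the 20 leading genes, the first in 133 members and the second in 32.

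The members were also read on both lists at the level of the cell. The bile duct list lay above the leukocyte level in 124 of 144 members (86.1%, 79.4 to 91.3%) and the hepatocyte list in 141 (97.9%). Of the other barcodes 1.19% and 1.36% were above these levels. Leukocytes make some listed genes, such as HP, so the levels are not a plain background. Both lists were above in 121 members (84.0%), the hepatocyte list alone in 20 (13.9%), the duct list alone in 3 and neither in 0. By group, the duct list was above in 1 of 20 hepatocyte-like cells, 105 of 106 AHSG group cells and 18 of 18 MMP7 cells. The hepatocyte list holds APOA1, AHSG and TF, and with FGB, HPX, SERPINA1 and APOC3 alone, a list set after the values were seen, 24 members (16.7%) were above it and 4 (2.78%) were above both. Thus the same cells count as carrying both programmes or almost only the duct one, depending on which plasma protein genes stand for the hepatocyte.

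The edge of the rule cut through both kinds of cell. At 2 UMIs of KRT18 there were 18 members, of which 7 had a duct profile (5 or more UMIs of EPCAM, KRT7 and KRT19 together), 8 a hepatocyte profile (50 or more UMIs of FGB, HPX, SERPINA1 and APOC3 together) and 3 neither. Just outside, 40 barcodes had 1 UMI of KRT18 and none of PTPRC, with 7 duct profiles, 9 hepatocyte profiles and 24 with neither. Among liver barcodes with 500 or more genes, 182 had the duct profile, and of these 114 were members, 38 lay above the upper limits and 19 had a UMI of PTPRC. In contrast, 51 of the same barcodes had the hepatocyte profile, and of these 21 were members, 9 had 1 UMI of KRT18 and 15 had none. Most barcodes with the duct profile were members and most with the hepatocyte profile were not. Of the non-members within the limits, 8 with the hepatocyte profile and 0 with the duct profile had 40% or more mitochondrial UMIs. The authors' own filter leaves such barcodes out, and without them the margin for the hepatocyte profile is small. No share of hepatocytes in the liver can be read from these numbers.

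The same rule was applied to the other 14 libraries, and 12 of all 15 gave 50 or more barcodes, from 100 in AD colon to 4728 in NB abomasum. Across the 11 of these that were not liver, 7 of the 19 plasma protein genes were read. AHSG was at 12668 CPM in liver and at no more than 0.701 elsewhere, and APOA1 at 33396 in liver, 1855 in NB duodenum and 776 in NB jejunum, with no more than 74.7 in the others. Liver was 18.0-fold above the next library, NB duodenum, and 101-fold above the next one, then NB jejunum, when 5 or more KRT18 UMIs were asked for. ALB, FGB, FGG, HPX and TF were at no more than 3.56 outside liver. ONECUT1 (408), KIF12 (2404) and CDH2 (525, N-cadherin, chosen after its values were seen) were at 0, at most 7.47 and at most 0.777 in the other libraries.

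Duct genes of the members were read in the same libraries. KRT8 was at 733 in liver and at 3791 in AD colon, KRT19 at 528 and 5476, and EPCAM at 648 and 2154. CFTR was at 254 in liver and 206 in AD cecum, whereas SCTR was at 332 in liver and 12.8 in the next library, NB duodenum. TM4SF4 was at 2245 in liver, 802 in AD jejunum and 633 in NB duodenum. KRT7 was at 364 in liver and at most 221, in AD jejunum, among these libraries, but at 3265 in 21 barcodes of NB salivary gland. KRT8, KRT19 and EPCAM were thus higher in gut libraries than in liver, whereas SCTR, TM4SF4, KRT7 and CFTR had their highest value in liver among the libraries with 50 or more barcodes. Tissue and digestion differ between libraries and cannot be told apart, since the intestinal tissues were digested in another way. For the AD libraries, age and animal differ from liver as well. Whether the newborn libraries share a calf with liver is not known, since the sources used here do not give its calf.

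**Figure D5:**
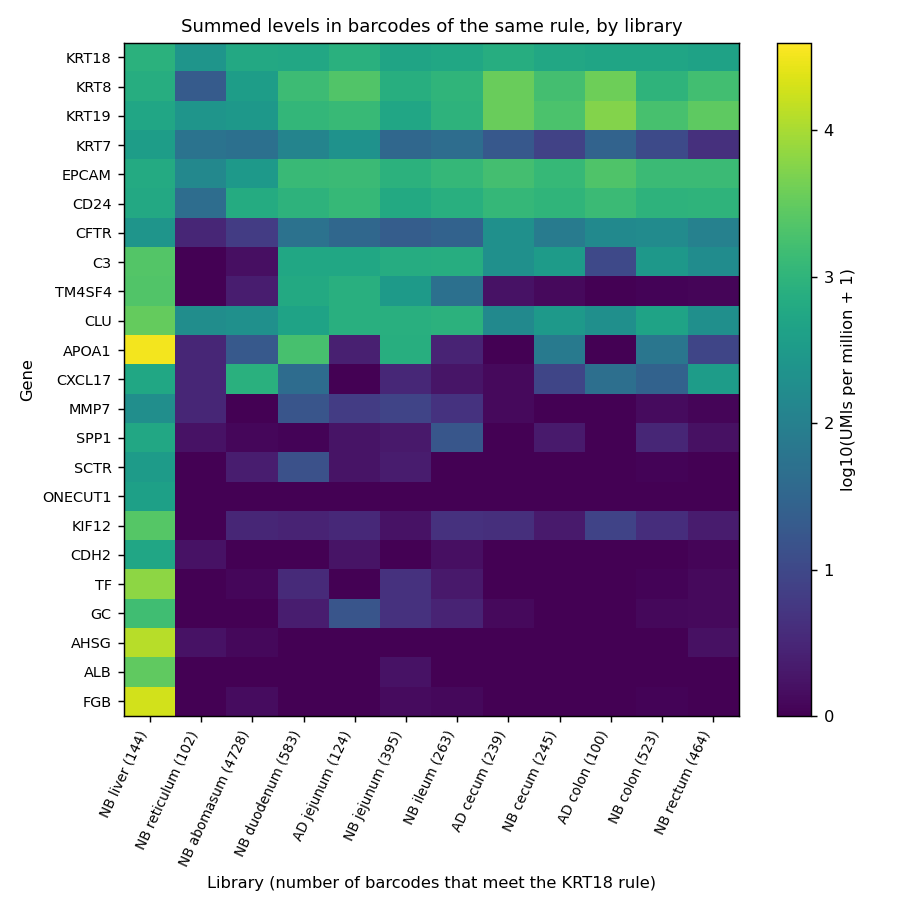
Colour gives log10 of CPM plus 1, summed over barcodes that meet the KRT18 rule, for 23 genes (rows) in the 12 libraries with at least 50 such barcodes (columns, numbers in brackets). KRT18, KRT8, KRT19 and EPCAM are bright in most columns, whereas AHSG, ALB, FGB, ONECUT1 and KIF12 are bright in the NB liver column.

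Genes that the survey names for STOML3+ cells were looked for among the members. STOML3, HOXA9 and INKA1 had no UMI in any of the 144 cells (limit 2.43 CPM). MFAP2, a matrix microfibril gene, was at 36.5 CPM against 4.31 in the other barcodes, with a UMI in 33 members, and TGFB2, a growth factor, at 13.8 against 1.85, with a UMI in 15. KIT, a receptor of a signalling pathway named for these cells, was at 47.8 against 14.2, with a UMI in 41 members. The proliferation list summed to 39.0 CPM in hepatocyte-like cells, 496 in the AHSG group and 491 in the MMP7 group, against 578 in the other barcodes. MKI67 had a UMI in 4 members, and TOP2A, in 5, was at 8.10 CPM against 61.3. Of this list 1 of 7 genes was 4-fold or more lower than in the other barcodes, with none higher, where 9.72% of all genes were lower, and the 3 genes compared between the AHSG group and hepatocyte-like cells, STMN1, PCNA and TYMS, were 4-fold or more higher in the former, where 17.1% of all genes were and the median log2 difference over all genes was 0.98.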

How the data were processed

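The authors digested the tissue, captured cells with the 10x 3' kit, and aligned and counted reads with Cell Ranger 3.1.0 against ARS-UCD1.2. The annotation release is not given in the sources used here. The values the authors deposited are whole-number UMI counts per gene and barcode (unit counts), not normalized, as sparse matrices. A UMI counts a molecule once at its 3' end, so levels were not divided by gene length. Doublets that the authors removed in their own analysis were not removed here. Doublet scores were computed with the Scrublet method in scanpy 1.11.5 and used only as an alternative.

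Counts were summed over barcodes and divided by the sum of all UMIs (CPM). With 1 library per group no test was run. A gene was compared when it reached 20 CPM in either set, and counted as higher or lower from 4-fold after adding 5 CPM. Intervals are exact (Poisson, Clopper-Pearson, conditional binomial for ratios), from scipy 1.17.1, at 95%. A count of 0 was set against a limit of 3 UMIs. Groups came from Leiden clustering (2000 variable genes, 15 components, 15 neighbours, resolution 0.5), and edgeR 4.0.16 gave TMM factors for an alternative scaling. The scripts were tested on simulated data. Named genes were those of the marker lists, the 20 highest and 10 lowest by ratio (50 CPM in the higher set, and a UMI in 10% of members for higher genes) and the 5 highest of each group. The members and the lists were chosen with earlier results of these data known. No genome of the build was used, and no coordinates or sequences are given. Values of a few single genes are not reported here.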

Additional observations from a re-analysis of the deposited data

Results flagged for a closer look

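Signal was also measured in barcodes that the upper limits leave out. Of 299 liver barcodes above those limits, 26 (8.70%, exact interval 5.76 to 12.5%) had 2 or more UMIs of KRT18 and 0 of PTPRC, where a count of 0 would allow up to 1.00%. They had 4024 to 6645 genes (median 4495.5) and 13580 to 39570 UMIs (median 17768), and 25 of them had the duct profile. APOA1 was at 43027 CPM in them, AHSG at 12231, KRT7 at 580 and EPCAM at 943, and FGB, at 3994, had a UMI in 16 of 26. Only 1 of the 26 had the hepatocyte profile, so most of these FGB UMIs lay in 1 barcode. MMP7 was at 590 and C1QA at 44.1. Whether these barcodes hold 1 or several cells was not tested.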

How the results depend on the processing

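No paired analysis was possible because each tissue and age has 1 library. Of the alternatives tried, 38 values from the alternatives planned and 19 from those added moved by less than their counting interval or by less than 1.5 times. A minimum of 5 KRT18 UMIs left 95 members, with the duct list above the leukocyte level in 93.7%, the hepatocyte list in 100% and both in 93.7%. A pseudocount of 20 CPM left 402 genes higher and 307 lower. Under TMM scaling 756 were higher and 783 lower, which turned the balance of calls, from 58.0% to 49.1% higher, and the median over all genes from 0.07 to -0.34. The 95th percentile of leukocyte barcodes put 100% of members above it for the hepatocyte list, and a level passed by 1 in 1000 leukocyte barcodes put 66.0% above for the duct list, 85.4% for the hepatocyte list and 56.2% for both. Other alternatives were chosen after seeing the data: the short hepatocyte list (16.7% above, 2.78% above both lists), a clustering resolution of 0.25 (the MMP7 cells in a cluster of 124), the AHSG group without cells of mixed markers (880 APOA1 UMIs per FGB UMI in place of 158), leukocyte barcodes without those with epithelial UMIs (0.437 in place of 3.13), and APOA1 in liver over the next library, 18.0-fold, which was 101-fold at 5 or more KRT18 UMIs. The cause was not tested, except that the percentile, the minimum and the short list change by construction what is counted. The 18 MMP7 cells hold 85523 UMIs, so that genes below about 35.1 CPM cannot be told from 0 there.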

Other observations

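Further genes were read in the 3 groups and chosen after their values had been seen, some of them also in the lists (CA2, HP, F2, IGF2). Values are CPM in hepatocyte-like cells, the AHSG group and the MMP7 group in this order. Of the carbonic anhydrases, which make bicarbonate from carbon dioxide, CA2 was at 10.4, 196 and 304, CA3 at 5.20, 318 and 257, and CA4 at 0, 444 and 1181. Among acute phase genes SAA2 was at 6862, 23.6 and 11.7, ORM1 at 10178, 123 and 0 and HP at 12246, 44.5 and 11.7. Without the cells of mixed markers SAA2, ORM1 and HP were at 2.78, 11.1 and 22.2 in the AHSG group. The metal-binding metallothionein genes were at 5433, 21.0 and 35.1 (MT1A) and 5082, 17.0 and 46.8 (MT2A).

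Clotting and complement genes were not alike. F2 (prothrombin) was at 2385, 53.7 and 0 and C9 at 1385, 10.5 and 0. In contrast, KNG1 (kininogen) was at 974, 613 and 58.5, the protein C inhibitor SERPINA5 at 598, 749 and 503, and complement factor I (CFI) at 759, 449 and 304. The creatine synthesis enzyme GATM was at 1785, 1421 and 994. For these 4 genes hepatocyte-like cells were at most 1.69-fold above the AHSG group.

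Of 3 imprinted genes, PEG10 was at 5.20, 831 and 327 and PEG3 at 2.60, 338 and 0, whereas IGF2 was at 696, 30.1 and 11.7. In the other libraries PEG10 reached at most 21.7 among barcodes of the same rule.

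Single genes of the MMP7 group were read against the AHSG group. HMGCS1 was at 339 against 34.0, a ratio of 9.96 (5.66 to 17.6), with a UMI in 5 of 18 cells, FDPS at 257 against 41.9, in 10, and CYP51A1 at 234 against 34.0, in 8. They were picked for these values, and the other genes of cholesterol synthesis were not counted. CXCL17, a mucosal chemokine, was at 3052 against 530, TFPI2, a protease inhibitor, at 1462 against 397 and CRYAB, a small heat shock protein, at 1380 against 364.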
